A study of Mus musculus with 33 samples.

Results

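Ventricular cardiomyocytes of postnatal day 19 (P19) mice that carried the mAG-hGem transgene were compared by whether the reporter was on. Members were chosen by their labels alone: 8 cells labelled mAG-hGem positive (AP1 to AP8) and 4 labelled mAG-hGem negative (AN1, AN3, AN4 and AN5), 12 of the 33 cells of the series. The remaining 21 cells, 10 positive and 11 negative, came from embryonic day 14.5 (E14.5) hearts of the same reporter mice and serve here only for a side-by-side reading. Hearts were digested with enzymes, ventricular cells were sorted by fluorescence, and RNA of each cell was amplified as antisense RNA before sequencing. Cells were kept where a PCR on their cDNA was positive for Tnnt2 and negative for Pdgfrb. All 4 groups carry the transgene, so the negative cells are reporter cells without signal and not wild-type cells. The promoter of the transgene, the number of mice and the mouse that each cell came from are not given in the sources used here. Each group therefore counts as 1 sample, no test was possible and no p-value is given.

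The mAG-hGem reporter is a green fluorescent protein joined to a stretch of human geminin. Geminin holds back the licensing factor Cdt1 during S, G2 and M phase, and the anaphase-promoting complex (APC/C) marks it for destruction at the end of mitosis and through G1. A cell that is green has therefore built up the protein, a step that depends on protein stability as well as on transcription. Mouse cardiomyocytes divide in the fetus, and in the weeks around birth most of them leave the cell cycle after a last round of DNA synthesis without full division, while the heart turns to fatty acid oxidation and adult contractile proteins.

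The deposited table gave raw counts per gene, read here as CPM, which scales each count to the cell's own total. Totals ran from 13239789 to 40110117 counts in positive cells and from 23352415 to 40045791 in negative cells. Between 6849 and 10867 genes had a read in a positive cell (median 8722) and between 7954 and 10717 in a negative cell (median 8316). With each cell thinned to the smallest of these totals the medians were 8420 and 8131. AP5 and AP7 had the fewest genes, 6849 and 6934. Spearman's rank correlation over 12213 genes had a median of 0.72 among the 28 pairs of positive cells, 0.69 among the 6 pairs of negative cells and 0.71 across the 32 mixed pairs. The cells of a group were thus about as unlike each other as they were unlike the other group. These correlations are across genes, which share detection and depth, and are descriptions.

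Cardiomyocyte transcripts filled every cell. Myh6, the adult myosin heavy chain, was at 5067 to 15786 CPM (median 8407) in positive cells and at 11085, 18849, 23210.1 and 13819 CPM in AN1, AN3, AN4 and AN5. Tnni3, cardiac troponin I, was at 2334 to 5586 CPM (median 3737) in positive cells and at 3682, 6637, 6244 and 3116 CPM in the negative ones. Tnnt2, cardiac troponin T and the gene of the inclusion PCR, was at 5843 CPM in the sum of the positive cells and 8202 CPM in that of the negative cells. The ranges of Myh6 and Tnni3 overlapped, and the log2 ratio of the sums, positive over negative, was -0.73 for Myh6 and -0.37 for Tnni3. The 12 cardiomyocyte markers summed to 74748 to 124664 CPM (median 87924) against 97169, 126304, 118761 and 116236 CPM, with all 12 within 2-fold.

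Transcripts of other cell types stood in some cells of both groups. The 16 endothelial markers summed to 2049 CPM in AP4, 1659 in AP5, 685 in AP8, 575 in AP1 and 204 in AP6, and to 1297 CPM in AN1, against at most 2.44 CPM in the other 6 cells. Fibroblast markers reached 167 CPM in AP8, 117 in AP5 and 111 in AN4. In AP8 this was mostly periostin (Postn, 106 CPM), and in AN4 gelsolin (Gsn, 111 CPM). Pdgfrb, the gene of the exclusion PCR, was at 10.9 CPM in AP8 and 0.0499 CPM in AN1 and had no count in the other 10 cells. Macrophage markers stayed at or under 3.04 CPM. Transcripts from the Y chromosome set AN4 apart, with Ddx3y at 2.06 CPM and Eif2s3y at 0.171 CPM, against at least 112 and 90.1 CPM in the other 11 cells. The part of these features in the differences between the groups was not tested.

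**Figure D1:**
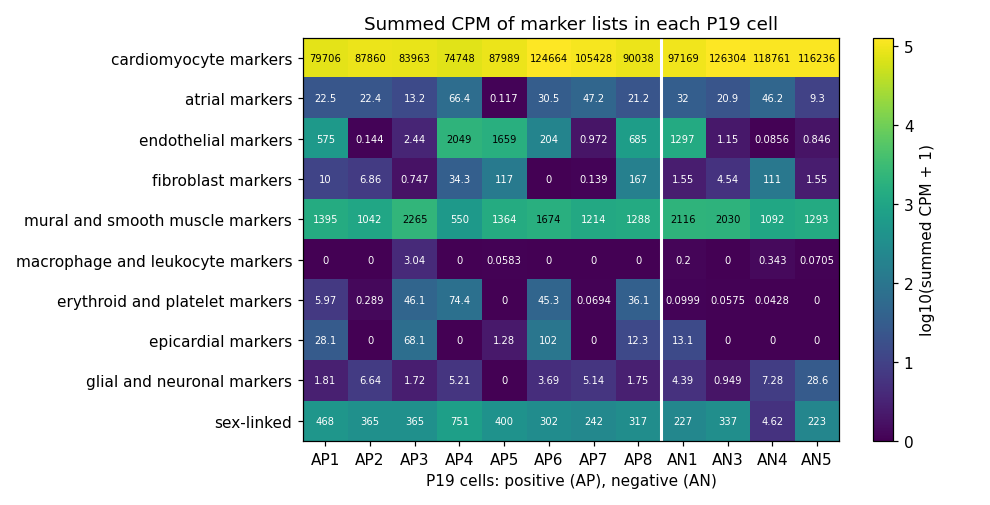
Summed CPM of each marker list (rows) in each P19 cell (columns, positive left of the white line, negative right), coloured by log10(summed CPM + 1). Endothelial markers are above 200 CPM in 5 of 8 positive cells and in AN1, and the sex-linked list is at 4.62 CPM in AN4.

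For each group the counts of its cells were added up and set against the sum of their totals. With at least 10 counts over both groups, 12213 genes could be compared, and a gene was called by size at 2-fold. By this rule 3627 genes (29.7%) were higher in positive cells and 2364 (19.4%) were lower, 6222 lay within 2-fold, and the median log2 ratio was 0.16. Size factors from DESeq2 moved that median to 0.03, so the medians of lists are read against it. The counts of each list are read beside the shares over all genes, 29.7% higher and 19.4% lower. Without the 6 P19 cells that held at least 100 CPM of Fabp4, an endothelial lipid carrier, 2758 genes were higher and 3205 lower, so the higher share of these calls was 46.3% in place of 60.5%. The cells left are AP2, AP3, AP7, AN3, AN4 and AN5, called the cells low in Fabp4 from here on. Without AP8 and AN1 the counts were 3999 and 2310. Of the endothelial markers 7 of 14 measured were higher and none lower, with a median log2 ratio of 0.74 that was 6.94 without AN1. Fibroblast markers had 6 of 10 higher and a median of 4.76, or -0.49 without AP8, and mural markers 8 of 12 higher and a median of 2.67, or 1.34 without AP8. In both lists 5 of the measured genes had no count in 1 group, so these medians lean on genes with few reads. The summed level of the mural list went the other way, with 1450 CPM for the pooled positive cells against 1719 CPM for the pooled negative ones. All 4 measured erythroid and platelet markers were higher, with a median of 4.64, but 2 of them had no count in negative cells. Pf4 was read in AP8 alone. Only 8 of the 13 listed genes were found, and the globin genes Hba-a1, Hba-a2, Hbb-b1, Hbb-b2 and Hbb-bt were not among them.

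How far the groups differed depended on the level of the gene. Under 1 CPM over the 12 cells only 17.5% of 2653 genes lay within 2-fold, and from 1 to 10 CPM 36.9% of 4005 did. The share was 71.2% of 4283 genes from 10 to 100 CPM, 96.5% of 1156 from 100 to 1000 CPM and 100% of 116 genes above. Among the 3627 higher genes, 2450 (67.5%) had over 50% of their positive counts in 1 cell, 913 had no count in the negative cells and 565 were read in all 8 positive cells. Among the 2364 lower genes, 1995 (84.4%) had over 50% of their negative counts in 1 cell, 387 had no count in the positive cells and 674 were read in all 4 negative cells. Most calls by size thus rested on a few cells and low levels.

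**Figure D2:**
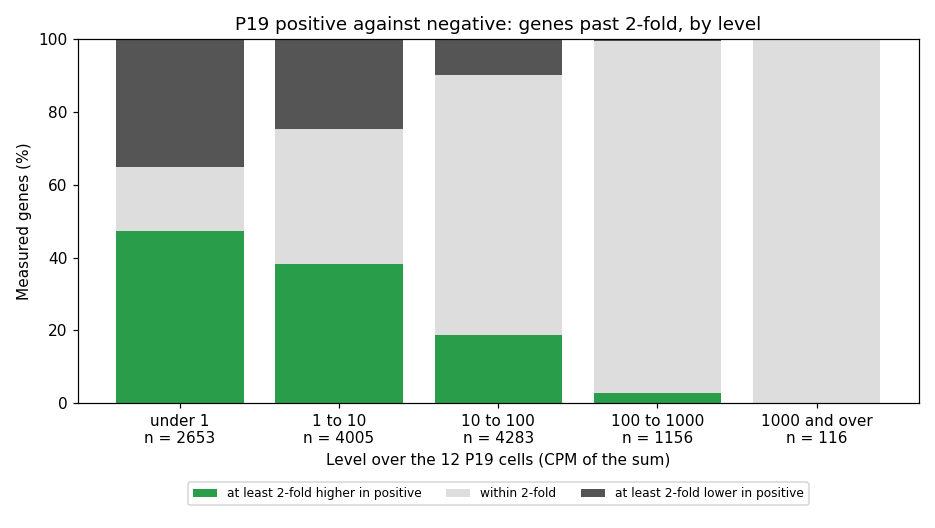
Share of measured genes (y axis, %) that were at least 2-fold higher (green), within 2-fold (light grey) or at least 2-fold lower (dark grey) in P19 positive cells, by level over the 12 cells (x axis, CPM of the sum). The share within 2-fold goes from 17.5% under 1 CPM to 100% at 1000 CPM and over.

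A stricter description asked in which genes all 8 positive cells lay on 1 side of all 4 negative cells. This held for 21 genes with positive cells higher (0.172% of the 12213) and 46 with positive cells lower (0.377%). With at least 20 CPM in the higher group there were 17 and 18. The lists of S phase, mitosis, cytokinesis and cyclins had 33, 25, 15 and 26 measured genes. None of the 35 belonged to them, which at shares of 0.172% and 0.377% is read as no result. Leaving out cells raises such counts by construction: without any 1 cell they were 24 to 78 and 51 to 132, without AP8 and AN1 99 and 156, and among the cells low in Fabp4 484 and 560. Another scaling shifts cells against each other: with TMM factors 19 of the 21 and 41 of the 46 still did not overlap, and with DESeq2 size factors 13 and 37.

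Promoter sequence is shown for 4 of these genes, 2 from each direction, because genes of the cell cycle often carry E2F or CHR letters just before their start. They are the 250 bases before the first listed start, from RefSeq on GRCm38.p6, 5′ to 3′ on the gene's own strand. Capitals mark the letters searched for on both strands: CCAAT, the ETS letters CCGGAAG, the CHR letters TTTGAA and the E2F letters TTTCCCGC, TTTGGCGC or TTTCGCGC.
Tmem183a (higher in positive cells, chr1:134362007-134362256, minus strand): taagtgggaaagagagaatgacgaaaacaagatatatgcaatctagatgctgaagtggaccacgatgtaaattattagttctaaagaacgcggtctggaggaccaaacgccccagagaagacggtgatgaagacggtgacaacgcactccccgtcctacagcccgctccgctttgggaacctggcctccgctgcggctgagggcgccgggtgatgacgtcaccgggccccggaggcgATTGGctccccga
Bccip (higher, chr7:133709083-133709332, plus strand): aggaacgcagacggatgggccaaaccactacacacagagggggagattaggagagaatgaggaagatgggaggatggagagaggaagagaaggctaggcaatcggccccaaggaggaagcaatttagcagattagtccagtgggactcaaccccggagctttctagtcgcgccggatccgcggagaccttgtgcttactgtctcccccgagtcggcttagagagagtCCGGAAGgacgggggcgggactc
Dhx33 (lower in positive cells, chr11:71004433-71004682, minus strand): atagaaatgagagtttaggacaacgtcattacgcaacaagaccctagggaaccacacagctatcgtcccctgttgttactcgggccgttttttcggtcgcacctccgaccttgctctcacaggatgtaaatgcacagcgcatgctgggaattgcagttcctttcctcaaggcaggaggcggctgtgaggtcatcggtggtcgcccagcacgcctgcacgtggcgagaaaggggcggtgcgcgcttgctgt
Stk4 (lower, chr2:164073888-164074137, plus strand): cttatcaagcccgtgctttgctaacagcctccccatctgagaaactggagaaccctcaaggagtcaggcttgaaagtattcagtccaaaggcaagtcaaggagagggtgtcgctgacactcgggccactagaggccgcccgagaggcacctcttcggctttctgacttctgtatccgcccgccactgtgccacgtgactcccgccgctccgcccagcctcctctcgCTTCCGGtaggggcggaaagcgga
Tmem183a holds CCAAT on its opposite strand, Bccip the ETS letters, Stk4 the ETS letters on its opposite strand, and Dhx33 none of them. Of the 35 genes 25 had a promoter in the table, 10 higher and 15 lower. None of the 25 held the E2F letters, which 3.10% of 8670 measured genes and 7 of 31 genes of the S phase list hold. The CHR letters were in 0 of 10 and 2 of 15, against 10.4% of measured genes and 17 of 40 of the G2 and mitosis list. CCAAT was in 4 of 10 and 4 of 15 (36.0% of measured genes), and the ETS letters in 4 of 10 and 2 of 15 (13.5%). Their GC content had a median of 59.8% in the higher and 63.2% in the lower genes, beside 60% over measured genes. A match is a description of letters and not a site.

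The widest gap between the nearest cells of the 2 groups was in Tmem183a, which encodes a membrane protein (chr1:134346097-134361979, minus strand, from the GENCODE annotation of GRCm38, as are the spans of the other genes). It was at 13.9 to 62.0 CPM (median 31.3) in positive cells and at 0.250, 0, 0.771 and 0 CPM in AN1, AN3, AN4 and AN5. AN3 and AN5 had no read, and no positive cell was near the negative range. The log2 ratio was 7.14 (95% counting interval 6.60 to 7.73) and 8.33 without AN4. The next was Xrcc2, a gene of DNA repair by homologous recombination (chr5:25689812-25705825, minus strand), at 2.77 to 80.1 CPM (median 21.3) in positive cells. In the negative cells it was at 0.0499, 0.920, 0 and 0 CPM, nearly all of it in AN3. Its log2 ratio of 6.27 was 9.90 without AN3. Bccip, a partner of BRCA2 and of the inhibitor p21 in the nucleus, lay in a narrow band of 18.6 to 28.6 CPM (median 24.5) in positive cells. The negative cells were below, at 12.9, 4.802, 9.93 and 12.9 CPM, for a log2 ratio of 1.24 (1.15 to 1.33). Nipbl, which loads cohesin on chromosomes, was at 32.4 to 59.7 CPM (median 38.1) against 22.7, 19.1, 18.2 and 30.3 CPM. AN5 came closest to the positive cells, the log2 ratio was 0.88, and with DESeq2 size factors the groups overlapped.

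Nedd4l, a ubiquitin ligase of ion channels, was at 7.25 to 262 CPM (median 50.1) in positive cells and 4.94, 0, 2.398 and 4.23 CPM in negative cells. AP5 was highest and AP1 lowest, and the log2 ratio was 4.41. Arhgap5, a GTPase-activating protein of the cytoskeleton, was at 32.9 to 104 CPM (median 70.7) against 3.12, 0.690, 10.02 and 12.4 CPM, a log2 ratio of 3.60 (3.49 to 3.71). Snx12, a sorting nexin of endosomes, was at 32.3 to 52.8 CPM (median 37.3) against 26.5, 4.83, 0 and 0.317 CPM. Here AN1 held most of the negative counts, and the log2 ratio of 1.93 became 4.19 without it. Pex11a, which takes part in peroxisome division, was at 17.7 to 127 CPM (median 47.0) against 10.9, 0, 0 and 5.53 CPM. AN3 and AN4 had no read, and the log2 ratio was 3.58, or 4.95 without AN1. Among the cells low in Fabp4 the ratios were 5.03 for Nedd4l, 4.30 for Snx12 and 5.06 for Pex11a.

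The remaining higher genes had narrower gaps between the nearest cells. Pigp, a subunit of the enzyme that starts the GPI anchor, was at 153 to 349.6 CPM (median 258) in positive and 142, 108, 82.6 and 104 CPM in negative cells, a log2 ratio of 1.08. Dip2c was at 35.6 to 305 CPM (median 68.8) against 31.6, 12.3, 13.3 and 16.3 CPM, with AP4 far above the other positive cells and a log2 ratio of 2.22. Rpf1, a factor of large ribosomal subunit assembly, was at 23.1 to 184 CPM (median 34.9) against 6.02, 1.44, 0.257 and 20.5 CPM. AN5 was just under the lowest positive cell, and the log2 ratio of 3.02 was 4.22 without it and 2.09 among the cells low in Fabp4. Cd164, a sialomucin of the cell surface, was at 235 to 343 CPM (median 274) against 181, 138, 221 and 194 CPM, a log2 ratio of 0.64. Snx12, Rpf1, Cd164 and Fxc1 overlapped between the groups with DESeq2 size factors. Outside the naming rule, and chosen after the values were seen, the set also held the clones 1110058L19Rik (1.35) and 2900064A13Rik (1.00), Fxc1 (2.06, or 3.32 among the cells low in Fabp4) and the adenine nucleotide carrier Slc25a5 (0.59). The ribosomal protein gene Rpl37, at 243 to 463 CPM (median 275) against 232, 189.5, 177 and 121 CPM, was the 17th. Rpl37 and Slc25a5 overlapped with either other scaling, and both have processed copies in the genome between which counts can be split.

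**Figure D3:**
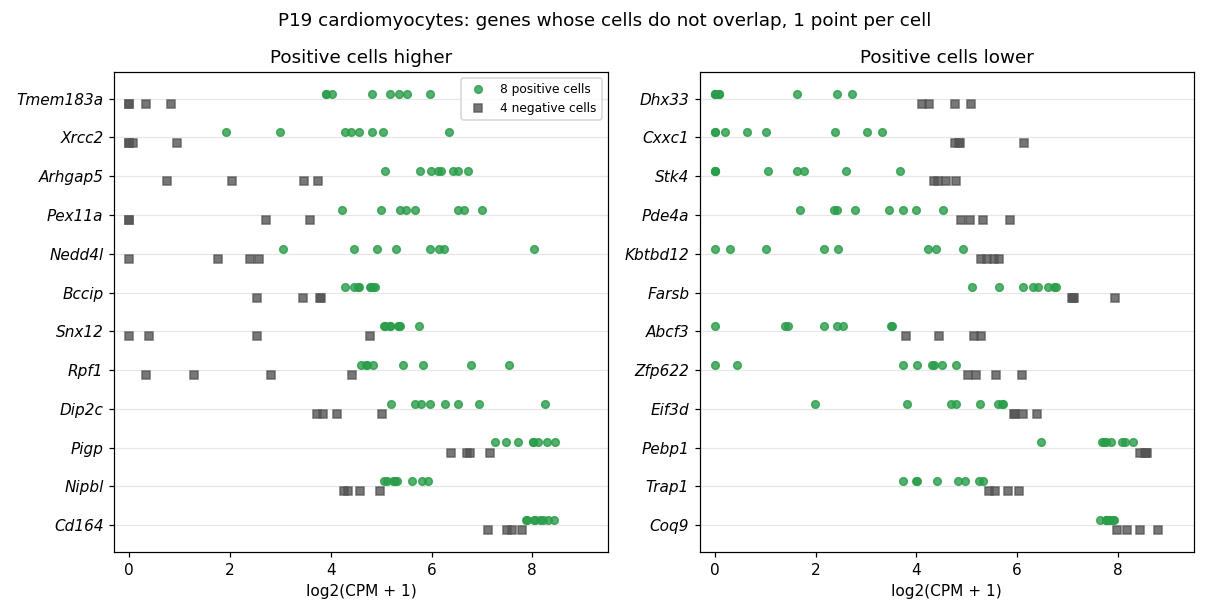
Level of 24 genes in each P19 cell (x axis, log2(CPM + 1); green circles 8 positive cells, grey squares 4 negative cells), 12 with all positive cells higher (left) and 12 with all lower (right), ordered by the ratio of the nearest cells. Tmem183a shows a wide gap between the groups, whereas Cd164 and Coq9 have neighbouring ranges.

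Among the lower genes the widest gap was in Dhx33, a DEAH helicase linked to ribosomal RNA synthesis (chr11:70984091-71004437, minus strand). Positive cells held 0 to 5.59 CPM (median 0.0544), and the negative cells 18.1, 16.3, 26.2 and 32.9 CPM. AP2, AP5 and AP7 had no read, AP1 had the most, and the log2 ratio was -4.25 (-4.44 to -4.06). Cxxc1, the CpG-binding subunit of the SET1 histone H3K4 methyltransferase, was at 0 to 9.0 CPM (median 0.785) in positive cells and at 26.1, 69.1, 28.2 and 27.7 CPM in negative cells. AP8 was the highest positive cell, and the log2 ratio of -3.40 was -4.03 without it. Stk4, the Hippo kinase MST1 (chr2:164070322-164155524, plus strand, a span that begins upstream of the RefSeq start whose promoter is printed), was at 0 to 11.8 CPM (median 1.59) in positive cells and in a band of 20.4, 22.97, 26.7 and 19.2 CPM in negative cells. AP5, AP6 and AP7 had no read, and the log2 ratio was -2.62, or -3.79 without AP8. Pde4a, a phosphodiesterase that breaks down cAMP, was at 2.22 to 21.9 CPM (median 7.91) against 28.7, 39.0, 32.5 and 57.1 CPM, a log2 ratio of -1.91. Kbtbd12, a kelch and BTB domain protein, was at 0 to 29.5 CPM (median 3.95) against 38.0, 49.0, 41.3 and 45.6 CPM. AP6 held the most among positive cells, and the log2 ratio of -1.91 was -2.53 without it. Among the cells low in Fabp4 it was -4.70, and the positive ones of these held 2 reads of Dhx33, too few for a ratio.

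Farsb, the beta subunit of phenylalanyl-tRNA synthetase, was at 33.4 to 109 CPM (median 81.6) in positive cells and 136, 135, 244 and 139 CPM in negative cells, a log2 ratio of -1.04. Eif3d, a cap-binding subunit of initiation factor 3, was at 2.97 to 51.8 CPM (median 31.9) against 68.6, 60.6, 61.2 and 83.1 CPM, a log2 ratio of -0.94. AP5 stood well under the other positive cells for this gene. Abcf3, of the ABCF family of ribosome-associated ATPases, was at 0 to 10.5 CPM (median 3.90) against 12.9, 20.9, 37.8 and 34.5 CPM, with a log2 ratio of -2.16. Zfp622, a maturation factor of the large ribosomal subunit, was at 0 to 26.5 CPM (median 17.0) against 31.6, 35.4, 67.3 and 46.6 CPM. AP5 and AP7, the cells with the fewest genes, held the least of it, and the log2 ratio was -1.42. Without AP8 and AN1 the ratio of Abcf3 was -2.81.

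Trap1, the mitochondrial HSP90, was at 12.4 to 38.8 CPM (median 23.7) against 42.2, 55.4, 46.1 and 64.1 CPM, a log2 ratio of -1.13. Coq9, needed to make coenzyme Q, was at 198 to 242 CPM (median 222) against 253, 445, 291 and 344 CPM, and Ogdh, the oxoglutarate dehydrogenase of the TCA cycle, at 227 to 361 CPM (median 313) against 376, 403, 724 and 535 CPM. Their log2 ratios were -0.58 and -0.66, and AN1 was the nearest negative cell for both. Pebp1, the Raf kinase inhibitor protein, was at 87.5 to 316 CPM (median 223) against a tight 346, 382, 374 and 369 CPM in negative cells, a log2 ratio of -0.63. Trap1, Coq9 and Pebp1 overlapped with TMM or DESeq2 factors, and Ogdh with DESeq2 size factors. Chosen after their values were seen, the rest were Idh2 (-0.49), the small heat shock protein Hspb8 (-0.81), the phosphatase Ppm1g (-1.36), 1110034G24Rik (-2.10) and C130022K22Rik (-2.46). Of these, Idh2 and 1110034G24Rik overlapped with either other scaling and Ppm1g with DESeq2 size factors, and among the cells low in Fabp4 the ratio was -3.23 for 1110034G24Rik and -3.67 for C130022K22Rik.

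At E14.5 the same 35 genes went both ways. There 5 of the 17 were higher and 12 lower in positive cells, with 3 past 2-fold each way, and 8 of the 18 were higher and 10 lower, again with 3 past 2-fold each way. Over the 13611 genes measured at E14.5, 24.9% were higher and 29.1% lower by the same rule. Only 18 genes (0.132%) had all E14.5 positive cells above all negative ones and 0 genes (0%) all below, so that none of the 35 was among them is read as no result. Of the 17, Xrcc2 (2.91), Rpf1 (1.42) and Nedd4l (1.19) were past 2-fold higher at E14.5, and Dip2c (-1.71), Pex11a (-1.33) and Snx12 (-1.07) past 2-fold lower. Pex11a was low there, at 0.510 against 1.28 CPM, and was read in only 2 positive and 2 negative cells. Of the 18, Dhx33 (-4.96), Stk4 (-2.09) and C130022K22Rik (-1.66) were past 2-fold lower, and Pde4a (at least 5.94, with no count in negative cells), Kbtbd12 (1.43) and 1110034G24Rik (1.14) past 2-fold higher. Pde4a was at only 0.578 CPM in the sum of the E14.5 positive cells and was read in 2 of them. The difference between the ages was not tested.

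Geminin RNA overlapped between green and other cells. Gmnn (chr13:24751845-24761923, minus strand) was at 0 to 66.8 CPM (median 33.3) in positive cells and at 77.3, 32.2, 60.2 and 52.4 CPM in AN1, AN3, AN4 and AN5. AP5 had no read and AP4 3.91 CPM, and the log2 ratio was -0.81. It was -0.43 without AP8 and AN1 and -0.02 among the cells low in Fabp4. Cdt1, the partner that geminin holds, and Cdc20, the mitotic activator of the APC/C, had no count in any of the 12 cells. Fzr1, which encodes the G1 activator CDH1, was at 1.75 to 14.8 CPM (median 5.51) against 12.5, 2.93, 0.257 and 12.3 CPM, a log2 ratio of -0.05. AP8 held the most Fzr1 and AN4 the least, and among the cells low in Fabp4 the ratio was 0.45.

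Of the 26 genes of the geminin and APC/C list 24 were found and 19 measured. By size 4 were higher, 1 was lower and 14 lay within 2-fold, with a median log2 ratio of 0.19. Skp1a, the adaptor of SCF ubiquitin ligases, was at 81.1 to 529 CPM (median 206) against 132, 145, 202 and 161 CPM, and Cul1, the scaffold of the same ligases, at 60.7 to 165 CPM (median 100.01) against 81.3, 51.4, 32.5 and 68.6 CPM. Their log2 ratios were 0.62 and 0.86, both with overlap. Cul4a, a cullin of the ligase that destroys Cdt1, was at 51.8 to 202 CPM (median 175) against 153, 13.7, 20.6 and 223 CPM, with AN3 and AN4 low. Cul4b had a log2 ratio of 2.17 that rested on AP7, at 186 CPM. It was 0.58 without that cell and 5.58 without AN3.

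Genes of S phase went both ways. Of 33 measured, 11 were higher and 10 lower by size, with a median of -0.34, or 0.66 without AN1 and 0.16 without AN5. The list summed to 322 to 737 CPM (median 485) in positive cells and 582, 419, 535 and 695 CPM in the negative ones. Tipin, a replication fork protector, was at 0 to 18.6 CPM (median 1.28) in positive cells against 32.2, 22.4, 47.5 and 14.03 CPM. Only AP4 lay above the lowest negative cell, AN5, and the log2 ratio was -2.73. Usp1, which removes ubiquitin from PCNA, was at 0.722 to 100.3 CPM (median 35.6) against 20.3, 0.173, 9.93 and 0.564 CPM. AP1, AP3, AP4, AP7 and AP8 lay above all negative cells, and the log2 ratio of 2.48 was 4.005 without AN1. Pcna, the sliding clamp, was at 0.833 to 181 CPM (median 62.3) against 126, 101, 84.5 and 64.5 CPM, and the repair glycosylase gene Ung at 36.1 to 178 CPM (median 112) against 134, 79.6, 169 and 296 CPM. Both overlapped and stayed within 2-fold (-0.50 and -0.66). With only the cells low in Fabp4 the ratio of Ung was -1.34, that of Tipin -4.41 and that of Usp1 3.28.

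Of the 46 genes of the mitotic list 12 had no count in any P19 cell, beside 6893 of all 20728 genes. This count is thus no result about the list. Of the 25 measured 13 were higher and 4 lower, and 8 entered at their bound because 1 group had no count. The median was 1.005, but -0.21 without AP8, 2.72 without AN1 and -0.18 among the cells low in Fabp4. Its summed level overlapped, at 169 to 472 CPM (median 380.0) in positive and 296, 272, 454 and 314 CPM in negative cells. At E14.5 the same list took 2579 to 21791 CPM per positive cell and 336 to 5159.5 CPM per negative cell. Mki67, the marker Ki-67, was at 5.58 CPM in AP8 and 0.0999 CPM in AN1 and without a count in the other 10 cells, and Ect2, which acts at the division plane, had none in any. AP8 is also the cell with Pdgfrb and periostin transcripts, and AN1 the negative cell with endothelial ones. AP4 and AP5, with more endothelial transcripts (2049 and 1659 CPM), had no Mki67 count. A link between these features was not tested.

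Mitotic genes with more reads overlapped as well. Pttg1, securin, was at 46.2 to 216 CPM (median 84.0) against 110.4, 105, 144 and 109 CPM, with AP5 above all negative cells, the other positive cells under all of them and a log2 ratio of -0.37. The centromere protein gene Cenpa was at 0 to 88.5 CPM (median 53.2) against 28.7, 80.0, 228 and 11.3 CPM, and AN4 alone set its log2 ratio of -0.98, which was -0.10 without that cell. Ckap5, a microtubule polymerase, was at 0.387 to 86.9 CPM (median 25.4) against 12.7, 21.7, 0.514 and 31.5 CPM, a log2 ratio of 0.84 with overlap. Among the cells low in Fabp4 the ratio of Ckap5 was -1.60 and that of Cenpa -1.76.

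**Figure D4:**
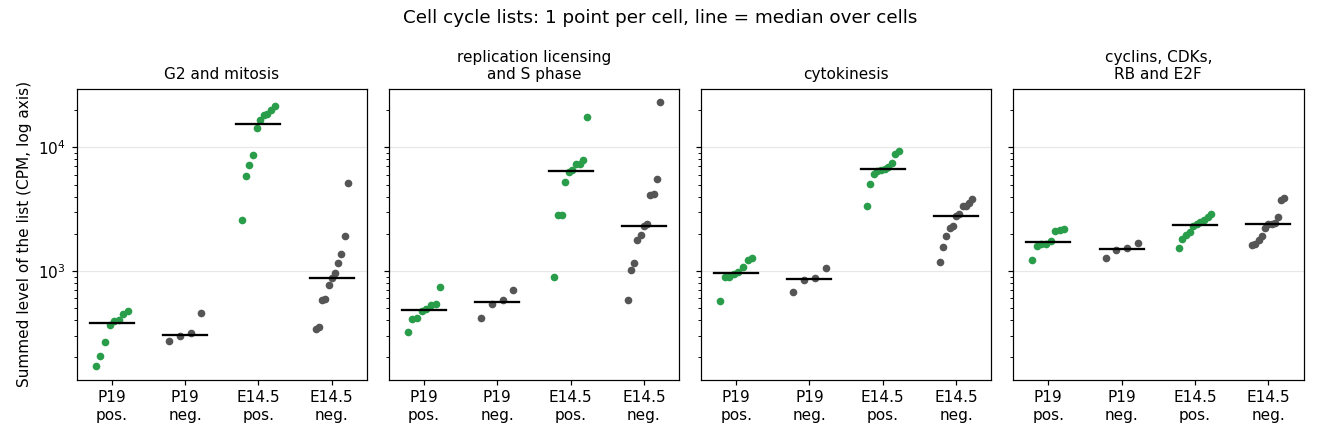
Summed level of 4 cell cycle lists (y axis, CPM, log axis) in each cell, 1 point per cell, for P19 positive (8), P19 negative (4), E14.5 positive (10) and E14.5 negative (11) cells, with lines at the median over cells. The P19 groups overlap in all 4 lists, and in the G2 and mitosis list the E14.5 positive cells start at 2579 CPM, above the highest P19 cell at 472 CPM.

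Cytokinesis genes had a median of 0.43, with 5 of 15 measured genes higher and 2 lower. Sept2, a septin, was at 58.7 to 343 CPM (median 185) against 158, 120.3, 279 and 214 CPM, and Chmp4b, an ESCRT-III subunit, at 91.1 to 224 CPM (median 141) against 117, 97.3, 249 and 292 CPM. Both were within 2-fold. Pdcd6ip, the ESCRT adaptor ALIX, had a log2 ratio of 1.02, at 0 to 137 CPM (median 50.5) against 36.0, 29.8, 6.34 and 30.9 CPM. AP4, AP5 and AP6 were under the highest negative cells, and the ratio was 2.09 among the cells low in Fabp4. The list's median was 1.17 without AN1 and 0.01 without AP8.

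Among cyclins, CDKs, RB and E2F, 10 of 26 were higher (38.5%, beside 29.7% of all genes) and 2 lower. The median was 0.16, the same as over all genes. Ccnd2, cyclin D2, was at 27.6 to 208 CPM (median 135) against 155, 140.1, 72.3 and 54.6 CPM, a log2 ratio of 0.08 that was -0.05 with DESeq2 size factors. Ccnd1, cyclin D1, was at 0 to 36.4 CPM (median 0.717) against 6.59, 0, 0.171 and 0 CPM. AP4 held most of it, and the log2 ratio of 1.47 was 0.42 without AP4 and 6.98 without AN1. The p53 target cyclin gene Ccng1 was at 606 to 1309 CPM (median 907) against 768, 733, 863 and 605 CPM, and Ccng2, a cyclin of resting cells, at 0 to 74.8 CPM (median 19.8) against 10.4, 21.4, 20.6 and 2.64 CPM. Their log2 ratios were 0.23 and 1.42. For Ccng2 AP3, AP5, AP6 and AP8 lay above all negative cells, and AP2 and AP7 below all of them. Ccnl2, a cyclin of splicing kinases, had a log2 ratio of 1.07 that was -0.06 among the cells low in Fabp4. There Ccng2 was at 0.08 and Ccnd1 at 6.31.

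Cell cycle inhibitors and p53 targets went both ways, with 5 of 21 higher, 5 lower and a median of 0.00 (-0.27 without AN3, -0.87 among the cells low in Fabp4). Cdkn1a, the inhibitor p21, was at 0 to 12.8 CPM (median 3.46) against 22.5, 0, 0 and 0 CPM. All of its negative counts lay in AN1, above every positive cell, and its log2 ratio of -0.98 was 6.70 without that cell. Gadd45g, a stress sensor, was at 0.117 to 126 CPM (median 58.7) against 29.7, 1.81, 27.1 and 5.25 CPM, a log2 ratio of 2.10, or 2.82 without AN1. Meis1, a regulator of cell cycle exit in cardiomyocytes, was at 0.289 to 20.8 CPM (median 8.18) against 13.8, 24.1, 56.3 and 0 CPM. Its log2 ratio was -1.27, and -0.60 without AN4. Sesn1, a sestrin, was at 26.4 to 259 CPM (median 120.5) against 112, 35.4, 222 and 150.1 CPM, within 2-fold. Among the cells low in Fabp4 the ratios were at least 7.39 for Cdkn1a, with no count in the negative ones, 3.41 for Gadd45g and -2.04 for Meis1.

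The nuclear envelope was read because the study is about lamin B2. Lmnb2 was at 2.16 CPM in AP3, 0.0543 CPM in AP4 and 1.45 CPM in AN1, and without a count in the other 9 cells. Lmnb1 was read in 3 positive cells, up to 4.22 CPM in AP6, and in no negative cell. Lmna, lamin A/C, was at 11.7 to 70.0 CPM (median 23.7) against 32.3, 66.5, 60.9 and 85.6 CPM. AP5 was above 3 of the 4 negative cells, AP2 and AP8 were above AN1 alone, the other 5 were under all 4, and the log2 ratio was -1.15 (-1.20 to -1.10). Of the 19 list members 4 were higher and 3 lower by size, with a median of 0.18, or -0.11 without AN3. Banf1, which ties chromatin to the envelope, was at 40.3 to 129 CPM (median 84.1) against 71.8, 65.8, 50.4 and 58.8 CPM, and Tor1aip1, the torsin activator LAP1, at 25.7 to 137 CPM (median 71.0) against 44.5, 84.6, 9.25 and 70.4 CPM. Zmpste24, the protease that matures prelamin A, had a log2 ratio of 1.27, at 0.111 to 42.7 CPM (median 24.4) against 14.9, 0.230, 3.43 and 15.7 CPM. AP1, AP5, AP6 and AP7 lay above all negative cells, AP3 under all of them and the other 3 among them, and the ratio was 1.92 without AP8 and AN1.

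Nuclear pore genes had a median of 0.51 (7 of 27 higher, 4 lower), which was -0.02 without AP2. Tpr, of the nuclear basket, was at 19.0 to 297 CPM (median 106) against 108, 91.4, 95.8 and 40.7 CPM. Nup50, a nucleoporin that aids import, was at 0 to 43.0 CPM (median 17.3) against 5.79, 7.04, 0 and 0 CPM, a log2 ratio of 2.56 with AP2 and AP5 at or near 0. Nupl1 had a log2 ratio of 1.56 (2.81 without AN5), and Nup85, of the Y complex, one of -2.70 that came from AN3 alone, at 163 CPM, and was 1.54 without it. Nuclear transport genes had a median of 0.22, with 5 of 28 higher and 2 lower. Ran, the GTPase of transport, was at 237 to 609 CPM (median 433) against 249, 476, 207 and 433 CPM, and the exportin gene Cse1l at 63.1 to 390.2 CPM (median 192) against 282, 97.4, 144 and 192 CPM. Xpo1, the main export receptor, was at 11.1 to 199 CPM (median 95.6) against 94.0, 1.61, 0.343 and 0 CPM, and its log2 ratio of 1.78 was 7.14 without AN1. Ipo11 was at 1.78, or 2.44 without AN4. In the cells low in Fabp4 Nupl1 was at 0.82, Nup50 at 3.48, Nup85 at -3.36 and Xpo1 at 7.68.

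In the sarcomere list 30 of 31 genes lay within 2-fold and 1 was lower, with a median of -0.02. Most of its genes are above 100 CPM, where 96.5% to 100% of all genes lay within 2-fold, so the count is no result about the sarcomere. The lower gene was Tcap, the titin cap, at 168 to 389 CPM (median 274) against 259, 936, 847 and 426 CPM, a log2 ratio of -1.08. AN1 lay within the positive range and the other negative cells above it. Myl3, the ventricular essential light chain, was at 14193 to 39455 CPM (median 21012) against 24851, 35844, 30765 and 30940.4 CPM, and Tpm1, tropomyosin, at 10052 to 19920.4 CPM (median 14456) against 17161, 21798, 16222 and 19081 CPM. Ankrd1, a stress-responsive ankyrin repeat protein, had a log2 ratio of 0.99, just under 2-fold, and 0.17 among the cells low in Fabp4. Myh7, the fetal myosin heavy chain, was at 11.5 to 247 CPM (median 35.8) against 20, 24.1, 183 and 27.1 CPM. AP6 and AN4 were highest, and its log2 ratio of 0.66 was -0.18 without AP6, 1.84 without AN4 and -0.68 among the cells low in Fabp4.

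The fetal contractile list went both ways, with 5 of 13 higher, 3 lower and a median of 0.33, or -0.21 among the cells low in Fabp4. Smpx, a small muscle protein, was at 1103 to 2009 CPM (median 1397) against 1436, 1266, 1127 and 1728 CPM, and Hopx, a homeodomain-only factor, was at 566 to 1412 CPM (median 924) against 969, 761, 546 and 714 CPM. Nppb, brain natriuretic peptide, was read in AP3 (115 CPM), AP5 (58.4 CPM), AP8 (24.9 CPM) and AN1 (1.498 CPM) and nowhere else. Its log2 ratio was 5.99, 4.64 without AP3, 9.76 without AN1 and at least 10.58 among the cells low in Fabp4, whose negative cells had no count. Tnni2, fast skeletal troponin I, reached 451 CPM in AN5, which set a log2 ratio of -2.99 that was -0.23 without it. Tnni1, the fetal troponin I, was at 1.41 CPM in AP4 and had no count in the other 11 cells.

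Calcium handling genes had 2 of 21 higher, none lower and a median of 0.23. Atp2a2, the calcium pump SERCA2, was at 10935 to 18658 CPM (median 14991) against 14602, 13625, 17469 and 22483 CPM, and its brake phospholamban (Pln) at 8461 to 14762 CPM (median 11081) against 9916, 7843, 8589 and 10885 CPM. Cacna1c, the L-type channel pore, was at 0.278 to 488 CPM (median 191) against 74.0, 40.0, 257 and 57.2 CPM. AP7 had almost none, and the log2 ratio of 1.30 was 2.01 without AN4 and 0.63 among the cells low in Fabp4. Ion channel and adrenergic genes had 5 of 25 higher, 2 lower and a median of -0.01. Kcne1, a potassium channel subunit, had a log2 ratio of 2.64 (4.01 without AN1), and Kcnd3 one of 1.67 (1.003 without AP6, 7.18 without AN4, 1.01 among the cells low in Fabp4). In the disc and costamere list 3 of 27 were higher, 1 was lower, and the median was 0.00, or 0.41 without AN4. Sgcd, delta-sarcoglycan, was at 0.139 to 156 CPM (median 69.6) against 21.9, 5.72, 13.2 and 6.98 CPM. Only AP7 lay under the negative cells, and the log2 ratio was 2.81, or 3.43 without AN1. Jup, plakoglobin, had a log2 ratio of 1.18 that AP7 supplied, -0.14 without it and 1.84 among the cells low in Fabp4.

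All 31 genes of fatty acid uptake and oxidation, all 21 of the TCA cycle and all 42 of oxidative phosphorylation lay within 2-fold, with medians of -0.04, -0.16 and -0.10. Most of these genes are above 100 CPM too, and the same limit applies to their counts. Glycolysis genes had a median of -0.40, beside 0.16 over all genes, 0.06 over genes from 100 to 1000 CPM and 0.03 over genes above. Without any 1 cell the glycolysis median lay between -0.49 and -0.21. By size 4 of 25 were lower (16%, beside 19.4% of all genes) and none was higher. Such counts depend on level, as above, and are read as no result. Hk1, a hexokinase, was at 0 to 46.8 CPM (median 18.8) against 85.6, 27.6, 58.2 and 19.6 CPM, a log2 ratio of -1.30 with overlap that was -0.20 among the cells low in Fabp4. Pygm, muscle glycogen phosphorylase, was at 8.22 to 35.7 CPM (median 15.2) against 25.7, 54.2, 48.8 and 29.8 CPM. Only AP1 lay above the lowest negative cells, and the log2 ratio was -1.28. Eno3, muscle enolase, was at 1326 to 2726 CPM (median 1662) against 1624, 3415, 2766 and 2188 CPM, and Ldhb, a lactate dehydrogenase subunit, at 1542 to 3806 CPM (median 2141) against 1887, 3773, 3729.6 and 2399.5 CPM.

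In fatty acid metabolism Lpl, lipoprotein lipase, was at 6990.3 to 15555 CPM (median 11311) against 13883, 5362, 13048 and 10309.7 CPM, and Fabp3, the heart fatty acid binding protein, at 5613 to 17279 CPM (median 8804) against 7985, 9996, 10063 and 6959.8 CPM. Ppargc1a, the coactivator of mitochondrial genes PGC-1 alpha, had a log2 ratio of 0.89, at 166 to 854 CPM (median 501) against 362, 254, 504 and 109 CPM. Of the TCA cycle, Mdh1 was at 8144 to 11335 CPM (median 9848) against 10162, 7998, 6557 and 6972 CPM, and Dlst, of the same complex as Ogdh, had a log2 ratio of -0.61. In oxidative phosphorylation Atp5g3, a subunit of the ATP synthase ring, was at 28991 to 39866 CPM (median 37129.9) against 43008, 31768, 28175 and 30045 CPM. Ndufb9 and Uqcrh, of complexes I and III, had log2 ratios of -0.63 and -0.62. Among mitochondrial dynamics and antioxidant genes 2 of 29 were lower, none was higher and the median was -0.16. Mfn1, mitofusin 1, was at 41.2 to 193 CPM (median 129) against 195, 179, 539 and 216 CPM, a log2 ratio of -1.01 in which AP8 alone reached the negative range. Tfam, the factor of mitochondrial DNA, had one of -0.87. Ribosomal protein genes had 3 of 44 lower and a median of -0.14 (0.05 among the cells low in Fabp4). Among the lower ones was Rps29 at -5.09, or -3.26 without AN3. It had 514 counts in AN1, 2039 in AN3, 2 in AN4 and 7 in AN5, beside 4 to 38 per positive cell.

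Cardiac transcription factors summed to 1343 to 2886 CPM (median 1999.7) in positive cells and 1313, 1139, 1305 and 1573 CPM in AN1, AN3, AN4 and AN5, and only AP2 and AP7 lay under the highest negative cell, AN5. Of 22 genes 6 were higher (27.3%, beside 29.7% of all genes) and 1 was lower (4.55%, beside 19.4%). Among all genes 429 of 4283 from 10 to 100 CPM were lower, and 8 of 1156 from 100 to 1000 CPM. These shares thus depend on level and are read as no result. Ankrd1, also a member of the sarcomere list, made up 620 of the 2156 CPM of the pooled positive cells and 312 of the 1322 CPM of the pooled negative ones. The list's median was 0.63, 0.50 with DESeq2 size factors, 0.22 without AN3 and 0.21 among the cells low in Fabp4. Tead1, the DNA-binding partner of YAP, was at 333 to 638 CPM (median 492) against 239, 109, 102 and 409.8 CPM. Only AN5 reached the positive range, and the log2 ratio was 1.17 (1.15 to 1.19). Nr3c1, the glucocorticoid receptor, was at 14.8 to 287 CPM (median 164) against 76.0, 67.1, 4.67 and 74.0 CPM. AP7 was the 1 positive cell among the negative ones, and the log2 ratio was 1.47. Zfpm2, the GATA4 cofactor FOG2, had a log2 ratio of 1.19, or 2.68 without AN4 and 0.25 among the cells low in Fabp4.

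Hippo and YAP genes split, with 6 of 18 higher, 6 lower and a median of -0.23, 0.38 without AN3. The entry Taz of that list is tafazzin by its symbol, and the YAP paralog is Wwtr1, at 7.36 to 182 CPM (median 123) against 62.8, 49.3, 88.2 and 62.6 CPM, a log2 ratio of 0.82. AP7 was far under the other positive cells. Cyr61, a YAP target, had a log2 ratio of 1.58, 0.82 without AP3, 2.34 without AN1 and 3.13 among the cells low in Fabp4. Growth factor signalling genes had 7 of 27 higher, 3 lower and a median of 0.01. Irs1, an insulin receptor substrate, and the growth factor Fgf1 were within 2-fold, at -0.33 and 0.03 (-0.82 for Fgf1 among the cells low in Fabp4).

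Of 26 heat shock and proteostasis genes 2 were higher and 1 was lower, with a median of -0.05. Hsp90aa1, the inducible cytosolic HSP90, was at 188 to 741 CPM (median 418) in positive cells against 161, 76.3, 190.0 and 112 CPM. AP5 lay just under AN4 and all other positive cells above the negative ones, and the log2 ratio was 1.72 (1.70 to 1.75). Its constitutive paralog Hsp90ab1 was at -0.01 (-0.64 among the cells low in Fabp4), and Dnaja1, a cochaperone, at 0.98. Immediate early genes, which cells switch on shortly after a stimulus, had 8 of 21 higher (38.1%, beside 29.7% of all genes), 2 lower and a median of 0.79. Their sum ran to 224 to 1181 CPM (median 608) against 729.8, 292, 367 and 381 CPM, with AP3 highest. Jun was at 37.5 to 186 CPM (median 73.0) against 73.1, 50.8, 0 and 49.1 CPM, and Dusp1 at 13.5 to 303 CPM (median 144) against 242, 16.4, 198 and 59.1 CPM. Klf6 had a log2 ratio of 2.21 (9.87 without AN1) and Ier5 one of 1.10 (0.36 without AP3), and among the cells low in Fabp4 Klf6 had 2 reads in the negative ones, too few for a ratio, Ier5 was at 1.82 and the list's median at 1.46. In the apoptosis list 6 of 19 were higher and 3 lower, with a median of 0.26. Bcl2l11, the pro-apoptotic BIM, was at 0 to 41.0 CPM (median 15.8) against 90.6, 0, 130.3 and 0.0705 CPM, so AN1 and AN4 alone set its log2 ratio of -1.49, which was -0.83 without AP8 and AN1.

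Side by side, and leaving the marker and sex-linked lists aside, the list medians of the 2 ages lay furthest apart for the G2 and mitosis list. The G2 and mitosis list had a median of 1.005 at P19 and 4.06 at E14.5, where 43 of 46 genes were at least 2-fold higher and none lower. Cytokinesis genes stood at 0.43 and 1.73. Immediate early genes had medians of opposite sign, 0.79 at P19 and -1.11 at E14.5, as did cardiac transcription factors at 0.63 and -0.23. The E14.5 sums overlapped in both lists. Immediate early genes took 360 to 31590 CPM per positive and 125 to 29370 CPM per negative cell, cardiac factors 2776 to 26296 and 2938 to 16098 CPM. The E14.5 negative cell N10 also held 59364 CPM of fibroblast markers. The E14.5 medians were not computed without single cells. The nuclear pore list was positive at both ages, 0.51 and 0.80, and so were nuclear transport, 0.22 and 0.60, and the lamina, 0.18 and 0.63. At P19 the transport and lamina values lay near the median over all genes. The P19 lamina median was -0.11 without AN3, and that of the nuclear pore list -0.02 without AP2. The glycolysis list was negative at both, -0.40 and -0.20. The median over all genes was 0.16 at P19 and -0.12 at E14.5. The G2 and mitosis median was -0.21 at P19 without AP8.

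**Figure D5:**
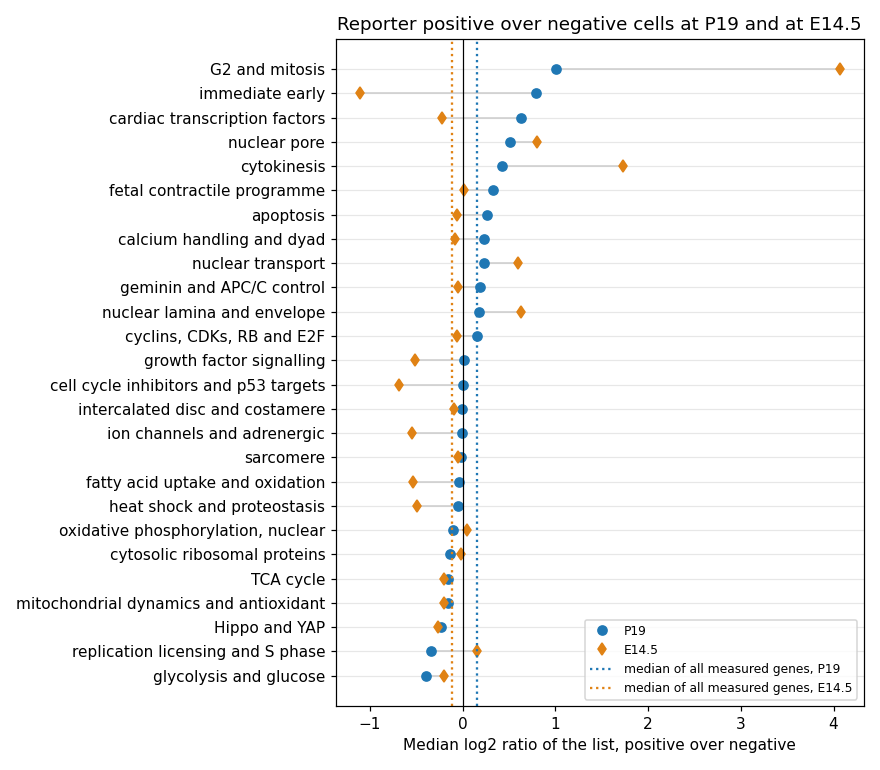
Median log2 ratio of each list, positive over negative (x axis), at P19 (blue circles) and E14.5 (orange diamonds), with dotted lines at the medians over all measured genes. The G2 and mitosis list lies at 1.005 at P19 and at 4.06 at E14.5, and the glycolysis list at -0.40 and -0.20.

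The largest ratios belonged to genes with most counts in a few cells. Rhd, an erythroid blood group protein, was at 74.4, 45.3, 42.9 and 31.8 CPM in AP4, AP6, AP3 and AP8, under 1 CPM in the other positive cells, and had 2 counts in the negative ones, both in AN3. Its log2 ratio was 10.83 (8.98 to 13.88). Leaving out AN3 took away both counts, and the bound on the log2 ratio was 9.78. Zfp667 and Bag4 had no count in negative cells and were at least 895-fold and 846-fold higher by a floor of 3 counts over the group, each with the most reads in 1 cell. The bounds on the log2 ratio were 8.496 without AP7 for Zfp667 and 9.14 without AP4 for Bag4. The formin Fmnl2 had a log2 ratio of 7.73, 6.92 without AP6, 9.93 without AN4 and -2.77 among the cells low in Fabp4, whose positive cells held 2 reads of it. Lower by size were Epb4.1l5 (-7.67, or -5.54 without AN3 and -8.94 without AP8), Zfp52 (-6.00, or -4.23 without AN5 and -6.70 without AP1), Fam123b (-5.99, or -4.60 without AN5 and -7.55 without AP6) and the protocadherin Pcdh9. For Pcdh9 AN1 alone held 79.1 CPM, and the log2 ratio of -5.92 was 0.09 without AN1, -6.85 without AP1 and -0.11 without AP8 and AN1. Among the cells low in Fabp4 the ratios were -9.12 for Epb4.1l5, -7.74 for Zfp52 and -9.74 for Fam123b, and Rhd and Pcdh9 had 2 reads in 1 of the groups, too few for a ratio.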

How the data were processed

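RNA of single sorted cardiomyocytes was sequenced, 1 cell per sample. The deposited table holds raw counts per gene that the authors made with, per the submitters' processing notes, CASAVA 1.8.2, STAR 2.4.0j, HTSeq 0.6.1p1 and mm10. Whether counting used strand is not given in the sources used here, so overlapping genes and near-identical copies are uncertain. Columns were tied to samples by title, and no 2 columns were identical.

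Counts of the 8 positive and 4 negative P19 cells were summed and compared as CPM of the sum, for genes with at least 10 counts over both groups. A group with no count entered at a floor of 3 counts over the group, which gives a bound. Intervals are 95%: conditional binomial for ratios. They cover counting error only, since amplified copies are not independent molecules, and say nothing of the spread between cells. No mouse, litter or date is named, so no test was run. Medians in brackets are over the 8 cells. Calculations ran in Python 3.11.15 with pandas 2.3.3, numpy 2.4.6, scipy 1.17.1 and matplotlib 3.10.9, with edgeR 4.0.16 for TMM factors and DESeq2 1.42.0 for size factors as other scalings. The calculation was tested on simulated counts that held counting error alone around means shared by the cells. That test checks the arithmetic and the counting intervals, and says nothing of the spread between real cells.

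Members and the 36 lists were chosen with earlier results of these data known. The genes named were 18 fixed genes and the sex-linked list, the 12 genes in each direction without overlap that had the widest gap between nearest cells, the 4 in each direction with the largest ratio, both at 20 CPM or more in the higher group, and 4 members of each list, 2 by level and 2 by ratio. Clones, pseudogenes and predicted genes were left out of the parts on overlap and on ratio. List genes found were 807 of 817. A few genes that the rule names are not reported here. The rest of the listed genes, the transcript of the reporter itself and protein sequences were not analysed here.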

Additional observations from a re-analysis of the deposited data

Results flagged for a closer look

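Among 76 sets of summed levels within a group, 7 had a cell whose gap to its nearest neighbour was over the 95% limit of Dixon's ratio, where chance gives about 1 in 20. Among positive cells, AP4 stood above the other 7 in cell cycle inhibitors and p53 targets, at 721 CPM, and in the sex-linked list, at 751 CPM. AP3 stood above them in macrophage and leukocyte markers, at 3.04 CPM, all from Emr1. Among negative cells, AN1 stood apart in endothelial markers, at 1297 CPM, and in epicardial markers, at 13.1 CPM from Tbx18. AN3 stood apart in ion channel and adrenergic genes, at 2711 CPM, and AN4 in fibroblast markers, at 111 CPM, nearly all Gsn.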

How the results depend on the processing

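No paired analysis was possible because the labels name no mouse, litter or day, the numbers of the cells only name them, and no result comes from a test. Across 22 other settings, 4440 of 4533 values of the named genes and of lists other than S phase, mitosis and sarcomere moved by less than the spread between cells, 84 moved by more, and 9 values of at least 2-fold turned their sign. Smaller values that crossed 0 are counted by how far they moved. The spread is the standard deviation over cells of log2(CPM + 1), for a list of its mean over members, in the group where it is larger. That is a wide measure, and another minimum count cannot alter the ratio of a single gene. Part of the 4440 was thus fixed in advance, and the number is no measure of stability. The numbers of genes at least 2-fold higher or lower stayed within 1.5 times in every setting run, from 3215 to 4444 and from 2036 to 2746 without 1 cell. Non-overlapping genes numbered 24 to 78 (positive higher) and 51 to 132 (positive lower) without 1 cell, 99 and 156 without AP8 and AN1, and 484 and 560 without the 6 cells with Fabp4, as fewer cells overlap less by construction. The S phase median was 0.37 without AP8 and AN1 and -0.50 to 0.66 without 1 cell. The G2 and mitosis median was -0.18 without the cells with Fabp4 and -0.21 to 2.72 without 1 cell. Without 1 cell the fibroblast median ran from -0.49 (AP8) to 5.95, Pcdh9 from -6.85 to 0.093 (AN1), Nup85 from -3.19 to 1.54 (AN3), Gsn from -4.81 to 3.02 (AN4) and Jup down to -0.14 (AP7). Without the cells with Fabp4, the mural median (-0.13) and Ccnl2 (-0.065) also turned their sign, among values of at least 2-fold. Fmnl2 (-2.77) and the endothelial receptor gene Kdr (-2.33) did so on few reads. Among the positive cells kept, Fmnl2 had 2 reads in AP7, and Kdr 2 each in AP3 and AP7 beside 22 in AN5. Leaving cells out by an endothelial gene takes away most Kdr reads by construction. The cause was not tested. Counting intervals, such as 1.70 to 1.75 for Hsp90aa1, were narrow beside the spread between cells. They cover counting error only, and the origin of the cells of both groups is unknown. What limits these values most was not tested.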
